A study of Mus musculus with 4 samples.

Results

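The genes that differed between the amygdala of mice lacking the P2X7 receptor and that of wild-type mice, both given saline, are described here. The members are 2 of the 4 samples of the series, the knockout saline and the wild-type saline sample, chosen by genotype and treatment in the labels. They hold 8 of its 16 arrays, 4 per group. All mice were male C57BL/6J animals of 10 weeks. They received sterile 0.9% NaCl into the peritoneum, in place of the bacterial lipopolysaccharide (LPS) given to the other groups, and were killed 6 h later. The knockout mice were P2X7R -/-, and the labels do not say which knockout allele they carried or whether wild-type mice were littermates. RNA from whole amygdala was hybridised as Cy3-labelled cRNA to 1-colour Agilent arrays. The labels give 4 mice per group but do not tie arrays to mice, so p-values measure the spread between arrays, which may be partly technical.

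P2X7, encoded by P2rx7, is an ion channel that opens when extracellular ATP binds. In the brain it is known best from microglia, where its opening lets potassium out of the cell and starts assembly of the NLRP3 inflammasome, which matures interleukin-1β. The amygdala processes fear and anxiety, and consists of a cortex-like basolateral part and a striatum-like central part rich in GABA neurons.

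Levels are log2 of processed intensity over the 75th percentile of its array, and differences are knockout minus wild type on that log2 scale ± the standard error of 1 limma fit to all 16 arrays, with n = 4 arrays per group unless stated. Both wild-type groups were scanned in session 1 on slides 1 and 2, and both knockout groups in session 2 on slides 3 and 4. Genotype, slide and scan session therefore cannot be told apart in any value below. To limit the effect of single probes, a gene was counted as higher or lower only when its brightest probe passed an adjusted p of 0.05 (limma, Benjamini-Hochberg over all genes) and all its kept probes had the same sign. The 75th percentile of intensity was 745 to 1165 in wild type and 346 to 578 in knockout. Knockout array 1 stood apart: its median absolute difference from the other knockout arrays was 0.61 to 0.63, against 0.15 to 0.21 among those. That distance exceeded the smallest between a wild-type and a knockout array, 0.49. Wild-type arrays 1 and 2, on slide 1, are labelled saline but had genes of the LPS response at the level of LPS arrays. Cxcl10, a chemokine that LPS induces, was at 2.56, 3.11, −4.78 and −5.09 on the wild-type saline arrays, and at 0.89 to 3.69 on the 4 wild-type LPS arrays. Arrays 3 and 4 were far below that range. The arrays were kept as labelled, and for most lists counts are also given without these 2. The calls of named genes that an alternative ended are given at the end of each paragraph, with the value where arrays were left out. The alternatives changed the scaling, the background (normexp, from the raw signal), the base composition of the probe, the filter, the arrays or the block.

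P2rx7 was measured by 2 probes that did not agree, so the targeted gene itself was not counted under the rule. The brighter probe lies at chr5:123134194-123134253 (mm9, plus strand). Its level was −0.14, 0.14, 0.79 and 0.90 on wild-type arrays 1 to 4 and −0.80, −0.91, −1.57 and −1.08 on knockout arrays 1 to 4. All 4 knockout arrays lay below all 4 wild-type arrays, and the difference was −1.51 ± 0.25 (adjusted p = 0.000198). The dimmer probe has coordinates that span chr5:123120528-123123413, wider than the 60 bases of the probe. Its level was −4.83, −3.20, −3.87 and −3.70 in wild type and −3.26, −3.86, −3.90 and −3.64 in knockout. Here the groups overlapped, and the difference of 0.24 ± 0.29 did not pass the test (limma, adjusted p = 0.514 over all probes). The lower signal of the brighter probe remained after the correction for base composition described below, at −0.81 ± 0.28 (adjusted p = 0.0252), and was −1.94 without wild-type arrays 1 and 2. Which part of the gene the allele lacks was not used here, so neither probe by itself checks the labels. The probe sequences are shown because their place in the gene and their base content both bear on this value. They are printed 5′ to 3′ in the sense direction, with T in capitals. The first is whole, and of the second, with 24 T in 60 bases, the first 30 bases are given.
P2rx7 dimmer probe: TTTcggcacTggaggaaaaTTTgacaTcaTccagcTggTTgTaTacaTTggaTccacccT
P2rx7 brighter probe: TTcacTTcTcTcTTTaaagggaaccaTcTT

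**Figure D1:**
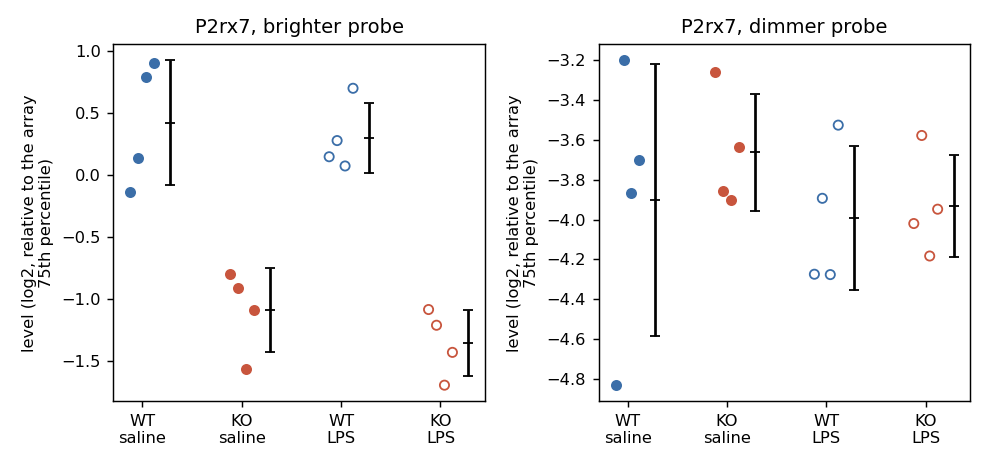
Level of the brighter and the dimmer P2rx7 probe (log2 level scaled by the 75th percentile, y axis) on each array of the 4 groups (x axis). Points are arrays, filled for saline and open for LPS, and bars are mean ± SD over 4 arrays. The brighter probe is lower on every knockout array, while the saline groups overlap at the dimmer probe.

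Of 19213 genes tested, 8354 (43.5%) were called, 4674 (24.3%) higher and 3680 (19.2%) lower in knockout. The call at the brightest probe alone gave 9766 genes, and 1412 of these were dropped because another probe had the opposite sign. Without knockout array 1 the count was 8022, and without wild-type arrays 1 and 2 it was 5912. The arrays of the groups did not overlap for 46.5% of genes. Most calls rested on a single probe: 6751 of the called genes had no second probe to compare. The authors' deposited table of fold changes lists 3627 probes as higher and 3958 as lower in knockout by at least 2-fold.

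Where several probes could be compared, they often disagreed. Of 6259 genes with at least 2 kept probes, 3065 (49.0%) had the same sign at all of them. Every probe was called in 1 direction for 958 genes (15.3%), 390 higher and 568 lower, while 923 genes had probes called in opposite directions. Among the 4375 genes with exactly 2 probes, both had the same sign in 57.2%. That share was 72.6% of 288 genes whose probes start less than 100 bases apart, 55.1% of 1578 genes with starts 1000 to 5000 bases apart, and 49.1% of 224 genes with starts over 50000 bases apart. The share fell with distance through all 6 classes of distance. The class under 100 bases and the 958 genes include probes that overlap in sequence, such as those of Elmod1, printed below. Such probes are not separate measurements of the transcript.

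The difference also followed the base content of the probe. Over 27992 probes, its correlation with the number of T among the 60 bases was r = −0.44, against 0.27 for A, 0.12 for C and 0.14 for G; these are descriptions across probes of the same 8 arrays. Probes with at most 9 T had a median difference of 1.21, and 85.5% of them were higher in knockout. Probes with 25 or more T had a median of −0.79, and 16.6% were higher. Within a gene, the probe with fewer T had the higher difference in 63.9% of 4082 genes with 2 probes of unequal T count, and in 75.3% of the 997 genes whose probes differed by at least 8 T. In knockout, LPS minus saline had a correlation of 0.09 with T count on slides of 1 scan session. After removal of a linear dependence on base counts from each array, 7499 genes were called, 5660 of them among the 8354.

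**Figure D2:**
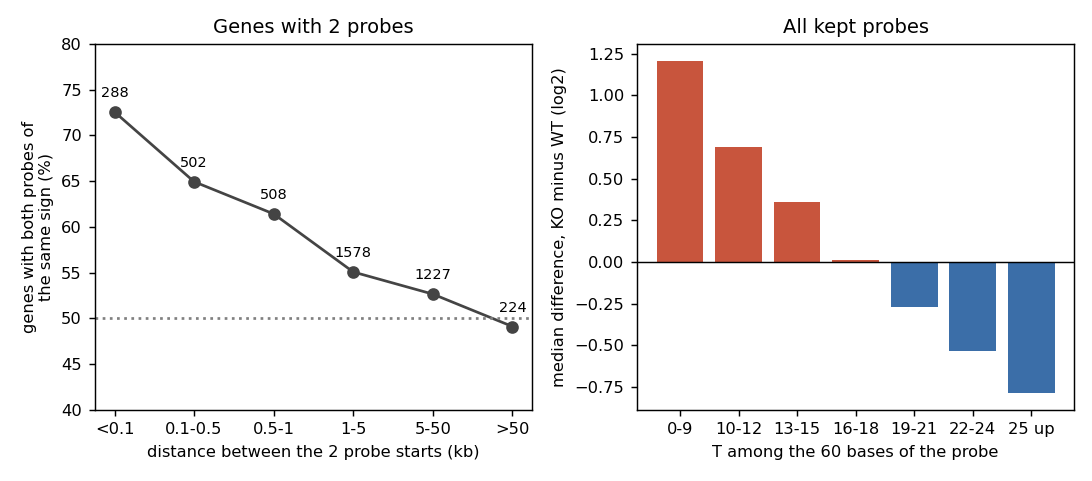
Left, share of genes with 2 probes whose differences have the same sign (y axis, percent) by distance between probe starts (x axis, kb); numbers are genes and the dotted line is 50%. Right, median difference of knockout minus wild type (log2) of all kept probes by the number of T in the probe. The share falls from 72.6% to 49.1% with distance, and the median falls from 1.21 to −0.79 as T rises.

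Spike-in RNAs, control RNAs that do not come from the mice, also differed between the sets of arrays. Relative to the median of the 10 spike-ins, the spike-in named E1A_r60_n9 differed by 1.77 and E1A_r60_n11 with −0.58 between knockout and wild-type saline arrays. The ratio of n9 to n11 (log2), a pair chosen after its values were seen, was −1.05, −1.14, −0.36 and −0.67 on the wild-type arrays and 1.20, 1.61, 1.71 and 1.67 on the knockout arrays. The groups did not overlap. Of the 10 spike-ins, 5 had the smallest p that 4 against 4 arrays can give (2-sided exact permutation test, p = 0.0286), which was 0.0571 after Benjamini-Hochberg adjustment over the 10.

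The genes with the largest consistent difference were taken from 574 genes with at least 2 probes, every probe called in 1 direction and well above background on all 8 arrays, 268 higher and 306 lower. Genes were ranked by their probe with the smallest difference. Tmsb10, which encodes thymosin β10, a binder of actin monomers, came first. Its level at the brightest probe was −0.20, −0.65, 0.84 and 0.20 on the wild-type arrays and 3.93, 2.71, 2.64 and 3.04 on the knockout arrays, without overlap. The difference was 3.03 ± 0.36 (adjusted p = 1.09e-05) and that of its other probe 2.97. Prpf38b, a splicing factor, stood at −4.23, −4.78, −3.97 and −4.70 on the wild-type arrays and −0.58, −0.46, −0.38 and −0.27 on the knockout arrays, a difference of 4.00 ± 0.30 (adjusted p = 1.78e-07) with 2.31 at the other probe. Bloc1s1, a subunit of a complex in the biogenesis of lysosome-related organelles, was higher by at least 2.14 at each probe, and Dlgap2, a scaffold protein of the postsynaptic density, by at least 2.05. Rpl30, Rpl35a and Rpl6, proteins of the large ribosomal subunit, were higher by at least 1.98, 1.67 and 1.65. The list of 12 was completed by H4c4, a histone H4 gene (1.79), Wdr25 (1.78), the adhesion molecule Tenm4 (1.76), the endosomal Rab11 effector Rab11fip5 (1.71) and Taf1d, a factor of RNA polymerase I transcription (1.65).

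Among the genes on the low side, Elmod1, a GTPase-activating protein for small GTPases, had the largest difference at its weaker probe. Its level was 1.56, 1.14, 1.19 and 1.19 on the wild-type arrays and −2.79, −1.24, −0.85 and −0.88 on the knockout arrays. No knockout array reached the lowest wild-type array, and the probes differed by −2.71 ± 0.36 and −2.73. The neighbouring genes in this order were Tmeff1, a transmembrane protein with follistatin domains (−2.19 at its weaker probe), and Dr1, a repressor that binds the TATA-binding protein (−1.94). Next came the ubiquitin-conjugating enzyme Ube2g1 (−1.93), the ubiquitin ligase adaptor Ndfip2 (−1.92) and, further down the order, the ubiquitin ligase Herc2 (−1.65). Prkcd, a protein kinase C known as a marker of a class of central amygdala neurons, had −1.87 at its weaker probe. The others were the inhibitory IgG receptor Fcgr2b (−1.72), the prefoldin subunit Vbp1 (−1.71), the oligodendrocyte tetraspanin Tspan2 (−1.68) and the guidance cue Sema3e (−1.66). Knockout array 1 gave the lowest knockout value for each of these genes except Prkcd and Tspan2. Rab11fip5 (0.50), Dr1 (−1.74) and Fcgr2b (−0.37) lost the call without wild-type arrays 1 and 2. Rab11fip5 (1.16 to 1.45 without wild-type array 1 or 2) lost the call with 1 array left out. Prpf38b (2.20 to 2.57 without knockout array 1, 3 or 4, where another probe was the brightest) and Dr1 (−1.22 without knockout array 1) kept the call at a value moved by over 1.5 times. H4c4 and Sema3e lost the call after the correction for base composition, H4c4 with only the G+C count corrected, Prkcd and Fcgr2b with normexp background, and Fcgr2b on the 8 saline arrays only. Probe sequences of the leading genes show the range of T content, with T in capitals; the first probe of Tmsb10 and of Rpl30 is given by its first 30 bases.
Tmsb10 (3.03, 7 T in all): cgaccaaagagaccaTTgaacaggaaaaga
Tmsb10 (2.97, 4 T): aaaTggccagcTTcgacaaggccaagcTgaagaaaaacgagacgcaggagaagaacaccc
Rpl30 (2.71, 15 T in all): agaacagacTggTgagaagTaaacaagaaa
Rpl30 (1.98, 13 T): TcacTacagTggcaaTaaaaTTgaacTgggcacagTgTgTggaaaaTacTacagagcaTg
Elmod1 (−2.71, 19 T): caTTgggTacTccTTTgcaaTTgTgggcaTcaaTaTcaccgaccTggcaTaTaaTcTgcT
Elmod1 (−2.73, 15 T): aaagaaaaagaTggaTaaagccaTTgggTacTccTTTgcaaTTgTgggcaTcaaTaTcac
The 2 Elmod1 probes overlap in sequence, so they are not separate measurements of the transcript.

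**Figure D3:**
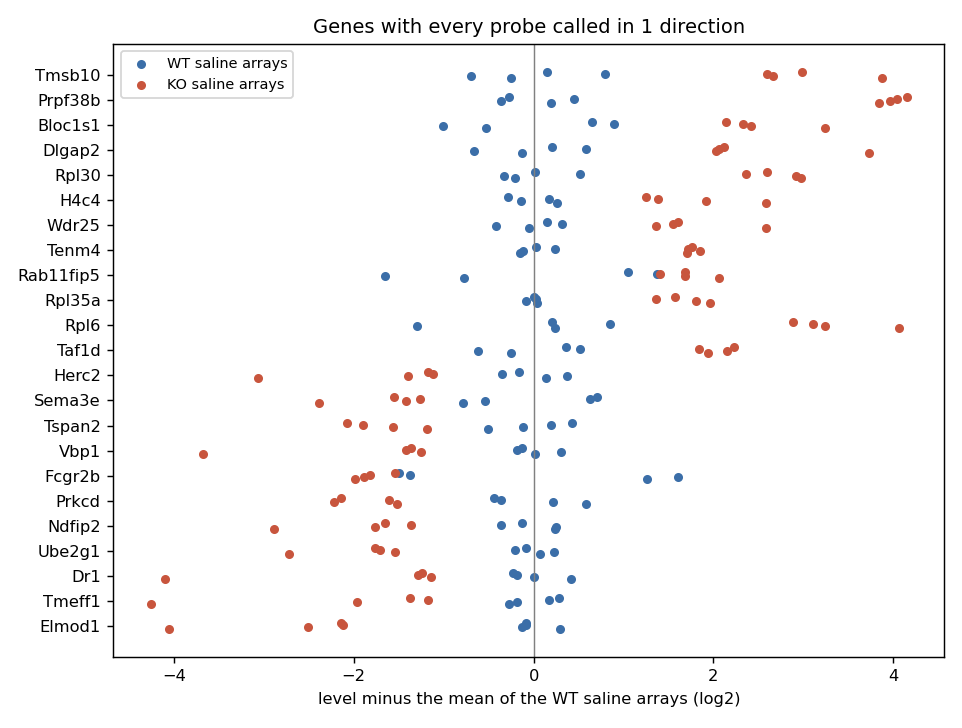
Level of the highest and lowest genes with every probe called in 1 direction (y axis) on each saline array, minus the mean of the wild-type arrays (x axis, log2, brightest probe). Points are arrays; knockout points lie on 1 side of all wild-type points for each gene drawn, and 1 knockout array lies far out for several.

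Other genes had probes called in opposite directions, and the 6 with the widest gap were Mb21d2, Mycbp, Thap12, Nrxn3, Fam126b and Hspa8. None of them counts as higher or lower. Nrxn3 encodes a presynaptic neurexin. Its probe at chr12:91570785-91570844 (mm9) had levels of −5.83, −5.77, −1.91 and −2.54 in wild type, where 2 arrays were well above background, and 0.55, 1.51, 1.46 and 1.33 in knockout. The probe at chr12:90749150-90750418 had −2.61, −2.81, −2.69 and −2.99 and −3.55, −4.20, −3.90 and −3.96. The former was 5.23 ± 0.81 higher and the latter differed by −1.13 ± 0.24. Hspa8 encodes the constitutive chaperone Hsc70, and its probes, at chr9:40612674-40612733 and chr9:40611142-40611201, differed by 4.90 ± 0.71 and −1.29 ± 0.33; the spots of the former on wild-type arrays 1 and 3 were marked as outliers and left out. Mb21d2 had 4.71 ± 0.56 at chr16:28826271-28826330 and −3.05 ± 0.46 at chr16:28828142-28828201, where no knockout array was well above background. The sequences show that the probe with the higher difference has fewer T in each pair printed, though only 10 against 12 in Hspa8. Over all genes with 2 probes of unequal T count, that share was 63.9%. The part of T count in these gaps was not tested. Of the first Mb21d2 probe the first 30 bases are given.
Nrxn3 (5.23, 6 T): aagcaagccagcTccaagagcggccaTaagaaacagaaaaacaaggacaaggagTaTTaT
Nrxn3 (−1.13, 16 T): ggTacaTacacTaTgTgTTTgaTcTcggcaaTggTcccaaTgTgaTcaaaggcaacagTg
Hspa8 (4.90, 10 T): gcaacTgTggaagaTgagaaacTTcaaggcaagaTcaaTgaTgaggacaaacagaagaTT
Hspa8 (−1.29, 12 T): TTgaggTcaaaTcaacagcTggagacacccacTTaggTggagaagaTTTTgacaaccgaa
Mb21d2 (4.71, 12 T in all): aTgcTTaTaaaTcacTcaacaaTcTcaagT
Mb21d2 (−3.05, 18 T): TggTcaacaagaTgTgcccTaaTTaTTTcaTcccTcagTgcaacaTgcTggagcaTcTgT
The gap was as wide in the others. Mycbp, which encodes a protein that binds c-Myc, ranged from −1.77 to 5.07 over 3 probes, Thap12 from −3.47 to 2.88 over 3, and Fam126b from −2.86 to 3.47 over 4.

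Of the receptors for extracellular nucleotides, the P2X channels and the G protein-coupled P2Y receptors, 12 were measured besides the adenosine receptors. Of these, 2 were higher and 2 lower in knockout (2 and 1 without wild-type arrays 1 and 2, and 16.7% and 16.7% with them, beside 24.3% and 19.2% of all genes), and 2 had probes that disagreed, P2rx7 and P2rx4. The alternatives gave 1 to 6 higher and 0 to 3 lower, with medians from −0.53 to 0.90; the high end, 6 higher and 0 lower, came with normexp background. The channel subunit P2rx3 was higher by 2.56 ± 0.53 (adjusted p = 0.00112), with 2 of 4 wild-type arrays well above background. P2rx2, which forms channels with it, was at −4.34, −4.04, −3.14 and −3.97 on the wild-type arrays and −1.57, −2.53, −2.27 and −1.95 on the knockout arrays, a difference of 1.79 ± 0.29 (adjusted p = 0.000176) without overlap. P2ry1, a receptor for ADP, was at −1.0, −0.90, −0.92 and −0.69 on the wild-type arrays and −4.03, −2.0, −2.60 and −2.73 on the knockout arrays. All knockout arrays were lower, with a difference of −1.96 ± 0.37 (adjusted p = 0.000556). P2rx5 was not well above background on any knockout array and was at least 1.15-fold lower there (adjusted p = 0.0182), with overlapping arrays; each array that was not well above background was set to the lowest signal that was. P2rx4, the gene next to P2rx7 and its closest relative, had 0.53 at one probe and −0.74 at the other, and the microglial ADP receptor P2ry12 had 0.26 ± 0.91 (adjusted p = 0.83). P2rx5 (−1.03) lost the call without wild-type arrays 1 and 2, where P2rx3 (1.53) kept it at a value moved by over 1.5 times. P2rx5 (−1.12 to −0.90 without wild-type array 1 or knockout array 4) lost the call with 1 array left out. P2rx5 lost the call after the correction for base composition, and P2ry1 and P2rx5 (sign turned) with normexp background.

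Next come the enzymes and channels that release and break down ATP and adenosine. Of 17 measured, adenosine receptors included, 5 were higher and 5 lower (2 and 4 without wild-type arrays 1 and 2, and 29.4% and 29.4% with them, beside 24.3% and 19.2% of all genes), and over the alternatives 2 to 6 higher and 3 to 6 lower, with medians from −0.31 to 0.29. Enpp1, which hydrolyses ATP outside the cell, was higher by 1.45 ± 0.21 (adjusted p = 5.43e-05), with 0.35 at its other probe. Nt5e (CD73), which makes adenosine from AMP, was at 0.05, 0.12, −1.24 and −1.19 against −3.04, −1.80, −2.0 and −2.13 in wild type and knockout and was lower, with a difference of −1.68 ± 0.34 (adjusted p = 0.000808). Enpp2 (autotaxin) and the adenosine receptor Adora2b were lower, with differences of −1.25 ± 0.33 and −1.22 ± 0.27. Adora2b was at −0.93, −1.24, −2.20 and −2.14 on the wild-type arrays and −3.05, −2.98, −2.58 and −2.76 on the knockout arrays. Neither overlapped, and wild-type arrays 1 and 2 were the highest for Adora2b. Downstream of P2X7, 2 of 13 inflammasome and interleukin-1 genes were higher and 3 lower (4 and 0 without wild-type arrays 1 and 2, and 15.4% and 23.1% with them, beside 24.3% and 19.2% of all genes). The alternatives gave 1 to 5 higher and 0 to 3 lower, with medians from −0.62 to 0.49. Nlrp3, the sensor of the inflammasome, was at −5.56, −4.57, −5.02 and −5.76 on the wild-type arrays and −3.46, −3.57, −3.27 and −3.05 on the knockout arrays, higher by 1.89 ± 0.28 (adjusted p = 6.73e-05). Nek7, a kinase that binds NLRP3, was higher by 1.38 ± 0.28 (adjusted p = 0.000832). The interleukin-1 receptor Il1r1 and the thioredoxin-binding Txnip were lower, with a difference of −2.12 ± 0.86 (adjusted p = 0.0497) and −0.86 ± 0.32 (adjusted p = 0.0358), both with overlapping arrays. Il1r1 was at 0.66, 0.49, −0.92 and −0.68 on the wild-type arrays and −1.36, −0.95, −0.52 and −6.12 on the knockout arrays, where array 4 alone was far down. The cytokine Il1b and the protease Casp1 had −0.65 ± 0.62 and −0.19 ± 0.18 (adjusted p = 0.403 and 0.397). Txnip (−0.14) and Il1r1 (−1.43) lost the call without wild-type arrays 1 and 2, where Nt5e (−1.03), Enpp2 (−1.88) and Adora2b (−0.67) kept it at a value moved by over 1.5 times. Txnip (−0.90 to −0.61 without wild-type array 1 or 2 or knockout array 1, 2 or 3) and Il1r1 (−2.31 to −0.83 without wild-type array 1, 2 or 4 or knockout array 4) lost the call with 1 array left out. Txnip (sign turned) and Il1r1 lost the call after the correction for base composition, Txnip and Il1r1 with only the G+C count corrected, on the 8 saline arrays only and with slide as a random block, Adora2b (sign turned) with normexp background, and Il1r1 with quantile normalization, with scaling by the array median, with no filter and with the filter on any of the 4 groups.

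Of 10 genes of GABA synthesis and transport measured, 4 were lower and 0 higher (2 and 0 without wild-type arrays 1 and 2, and 40% and 0% with them, beside 19.2% and 24.3% of all genes); the list had a median of −0.48 (against 0.07 for all genes). The alternatives gave 0 to 1 higher and 2 to 4 lower, with medians from −0.73 to −0.14; the value nearest to 0 came with base composition corrected. Gad1, which makes most GABA for the cell, was at 4.55, 4.30, 3.78 and 3.74 on the wild-type arrays and 2.31, 3.29, 3.0 and 3.28 on the knockout arrays. The arrays did not overlap, and the difference was −1.12 ± 0.44 (adjusted p = 0.0441). Gad2, its synaptic counterpart, was lower, with a difference of −0.73 ± 0.24 (adjusted p = 0.022) and Lhx6, a transcription factor of interneurons, with −0.83 ± 0.19 (adjusted p = 0.00236). The vesicular transporter Slc32a1, which all GABA neurons use, had 0.22 ± 0.17 (adjusted p = 0.306). In bulk tissue, fewer cells of a type and less RNA per cell cannot be told apart. Among 14 GABA receptor genes, 1 was higher, 4 were lower (7.14% and 28.6%, beside 24.3% and 19.2% of all genes) and 7 had probes that disagreed, and the alternatives gave 1 to 3 higher and 3 to 4 lower, with medians from −0.47 to 0.60. Gabra5 and Gabrg3, subunits of the GABA-A channel, were lower, with differences of −1.57 ± 0.29 and −0.82 ± 0.18, with every probe called. Gabrd, the extrasynaptic δ subunit, was higher by 1.44 ± 0.27 (adjusted p = 0.000477) on a single probe. Gad1 (−0.79) and Gad2 (−0.73) lost the call without wild-type arrays 1 and 2. Gad1 (−1.13 to −0.90 without wild-type array 1 or 2 or knockout array 1 or 3) and Gad2 (−0.62 without wild-type array 1) lost the call with 1 array left out. Gabrg3 and Lhx6 (sign turned) lost the call after the correction for base composition, Gad1 with only the G+C count corrected, with no filter, with slide as a random block and with a replicate block, and Lhx6 with normexp background.

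Of 16 ionotropic glutamate receptor genes, 4 were higher and 0 lower (1 and 0 without wild-type arrays 1 and 2, and 25% and 0% with them, beside 24.3% and 19.2% of all genes); over the alternatives there were 1 to 7 higher and 0 to 2 lower, with medians from 0.02 to 0.74. The kainate receptor subunits Grik5 and Grik1 were higher by 1.72 ± 0.30 (adjusted p = 0.000281) and 0.93 ± 0.25 (adjusted p = 0.00657). The NMDA receptor subunits Grin2d and Grin3b were higher by 1.5 ± 0.51 and 0.99 ± 0.34. The main AMPA and NMDA subunits Gria2 and Grin1 had −0.17 ± 0.28 and −0.28 ± 0.19 (adjusted p = 0.631 and 0.22). Of 31 receptors for monoamines and acetylcholine, 4 were higher and 4 lower (2 and 5 without wild-type arrays 1 and 2, and 12.9% and 12.9% with them, beside 24.3% and 19.2% of all genes). With normexp background 17 were higher and 3 lower, and the alternatives together gave medians from −0.14 to 0.69. The muscarinic receptor Chrm1 had the largest value, 5.17 ± 0.51, from levels of −5.99, −7.20, −3.97 and −4.34 on the wild-type arrays and 0.17, −0.25, −0.39 and −0.37 on the knockout arrays. Only 2 of the wild-type arrays were well above background at this probe, and the other Chrm1 probe gave 0.71. Chrm4, another muscarinic receptor, was at −5.17, −5.59, −4.47 and −5.17 on the wild-type arrays and −0.38, −4.18, −3.78 and −3.62 on the knockout arrays, with knockout array 1 far above the rest. It was higher by 2.11 ± 0.59 with 0.68 at its other probe. The serotonin-gated channel Htr3a was higher by 2.72 ± 0.65, again with 2 wild-type arrays well above background. Among the 4 lower receptors was the dopamine receptor Drd2, whose values stand below with the markers of the striatum. Grik1 (0.56), Grin2d (0.44), Grin3b (1.01), Chrm4 (1.83) and Htr3a (1.44) lost the call without wild-type arrays 1 and 2. Grin2d (1.09 to 1.41 without wild-type array 1 or 2 or knockout array 1 or 3) and Grin3b (0.59 to 0.91 without wild-type array 1 or knockout array 1) lost the call with 1 array left out. Chrm4 (1.24 without knockout array 1) kept the call at a value moved by over 1.5 times. Grin2d, Grin3b, Chrm1 (sign turned) and Chrm4 lost the call after the correction for base composition, Grin3b with quantile normalization, and Grin2d and Grin3b on the 8 saline arrays only.

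Another list holds enzymes of monoamines, kynurenine and biopterin, and transporters of monoamines. Of 19 members measured, 10 were lower and 2 higher (7 and 0 without wild-type arrays 1 and 2, and 52.6% and 10.5% with them, beside 19.2% and 24.3% of all genes), with a median of −0.75. With normexp background the direction turned, with 3 lower, 9 higher and a median of 0.53. With probes well above background on all 8 arrays, 4 were lower and 2 higher, with a median of 0.02. Pts and Gch1, of biopterin synthesis, were lower, with a difference of −1.5 ± 0.38 (adjusted p = 0.00445) and −1.42 ± 0.35 (adjusted p = 0.00357). Ddc, which makes dopamine and serotonin from their precursors, was at −0.49, −0.24, −0.09 and 0.05 on the wild-type arrays and −1.71, −1.16, −0.97 and −1.10 on the knockout arrays. It was lower, with a difference of −1.04 ± 0.25 (adjusted p = 0.00301) without overlap, with every probe called. The vesicular monoamine transporter Slc18a2 was lower, with a difference of −0.75 ± 0.24, well above background on 2 of 4 knockout arrays. Th, the rate-limiting enzyme of dopamine synthesis, had −0.11 ± 0.27 (adjusted p = 0.757). In this list, 3 members were not well above background on any knockout array. Pts (−1.01), Gch1 (−0.71) and Slc18a2 (−0.48) lost the call without wild-type arrays 1 and 2. Slc18a2 lost the call after the correction for base composition, and Gch1 (sign turned) and Slc18a2 (sign turned) with normexp background.

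Of 16 oligodendrocyte and myelin markers measured, 9 were lower and none higher (56.2% and 0%, beside 19.2% and 24.3% of all genes), 4 were not called, 3 had probes that disagreed, and the median was −1.23. Over the 20 alternatives the median ranged from −1.72 to −0.54, and with normexp background 7 were lower and 2 higher. Mal, a protein of compact myelin, was at 2.25, 2.32, 2.75 and 3.04 on the wild-type arrays and 0.30, 0.53, 0.73 and 0.77 on the knockout arrays. The groups were far apart, with −2.01 ± 0.31 (adjusted p = 0.000105), and its other probe gave −1.40. Ugt8a, the enzyme of galactosylceramide synthesis, was lower, with a difference of −1.74 ± 0.50 (adjusted p = 0.0088), and Mobp, a structural protein of myelin, with −1.54 ± 0.36 (adjusted p = 0.00259). Mbp, myelin basic protein, had probes from −1.90 to 0.91 and was not counted. The wild-type arrays were themselves spread: the median level of the list was 0.58, 0.17, 1.40 and 1.16 on the wild-type arrays and −0.09, −0.21, −0.06 and −0.22 on the knockout arrays. The medians did not overlap, whereas the log2 of the summed linear levels did, at 6.43 to 7.57 in wild type and 6.09 to 6.79 in knockout. Without wild-type arrays 1 and 2, 11 members were lower, and without knockout array 1, 10. 

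Of 17 markers measured of the striatum and central amygdala, 9 were lower and none higher (10 and 0 without wild-type arrays 1 and 2, and 52.9% and 0% with them, beside 19.2% and 24.3% of all genes), with a median of −0.96. Over the alternatives there were 0 higher and 7 to 11 lower, with medians from −1.33 to −0.66. Drd2, the dopamine D2 receptor, was at −0.69, −0.48, −0.17 and −0.32 on the wild-type arrays and −1.99, −3.04, −2.70 and −3.18 on the knockout arrays. All knockout arrays were lower, with a difference of −2.31 ± 0.44 (adjusted p = 0.000529), with −1.25 at the other probe. Adcy5, the adenylyl cyclase of striatal neurons, was lower, with a difference of −1.72 ± 0.28 (adjusted p = 0.000166), and the transcription factor Foxp1 with −0.95 ± 0.22 (adjusted p = 0.00241), though with −0.20 at its other probe. Drd1 and Penk, other markers of these neurons, were not called, with −0.53 ± 0.30 for Drd1 and probes of −1.20 and 0.09 for Penk. The median level of the list was 0.78, 0.57, 0.98 and 1.13 on the wild-type arrays and −0.14, 0.07, −0.07 and −0.03 on the knockout arrays, so that every knockout array lay below every wild-type array. The log2 of the summed linear levels, which the most abundant members set, was 6.25 to 7.38 in wild type and 6.65 to 6.95 in knockout, which overlap. Among 19 markers of cortex, hippocampus and basolateral amygdala, 5 were lower and 1 higher (4 and 0 without wild-type arrays 1 and 2, and 26.3% and 5.26% with them, beside 19.2% and 24.3% of all genes), with a median of −0.29, and the alternatives gave 0 to 3 higher and 3 to 5 lower, with medians from −0.49 to −0.15. The transcription factors Neurod6 and Tbr1 were lower, with a difference of −1.63 ± 0.36 (adjusted p = 0.00158) and −1.45 ± 0.31 (adjusted p = 0.00139), and Neurod1 with −0.98 ± 0.27. All members of both lists were well above background on at least 1 array of each group. Neurod1 (−0.74) lost the call without wild-type arrays 1 and 2. Neurod1 (sign turned) lost the call after the correction for base composition, and Prkcd, Drd2 and Neurod1 with normexp background.

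Markers of neighbouring regions were also counted. Of 11 hypothalamus markers, 4 were higher and 1 lower (3 and 1 without wild-type arrays 1 and 2, and 36.4% and 9.09% with them, beside 24.3% and 19.2% of all genes), with a median of 0.51. That median was 0.14 without knockout array 1 and 0.16 after the correction for base composition, and the alternatives gave 3 to 7 higher and 0 to 1 lower, with medians from 0.14 to 1.21. The median level of the list was −3.22, −3.20, −2.65 and −2.76 on the wild-type arrays and −1.71, −2.86, −2.62 and −2.78 on the knockout arrays, which overlap; the log2 of the summed level of the list was 0.88 to 1.19 in wild type and 2.09 to 2.82 in knockout, without overlap. Avp, the hormone vasopressin, was at −2.66, −2.84, −2.68 and −2.63 on the wild-type arrays and 0.52, 0.25, 0.47 and 0.51 on the knockout arrays. It was higher by 3.14 ± 0.51 (adjusted p = 0.000172), and its probe has 7 T. The opioid precursor Pomc was higher by 1.87 ± 0.30 (adjusted p = 0.000147) and oxytocin, Oxt, by 1.71 ± 0.47 (adjusted p = 0.00679). Agrp, a feeding peptide, was not well above background on any wild-type array and was at least 2.62-fold higher in knockout (adjusted p = 3.38e-05). The orexin and melanin-concentrating hormone genes Hcrt and Pmch had 0.51 ± 0.68 and −0.19 ± 0.74 (adjusted p = 0.553 and 0.85). Among 10 choroid plexus and ependyma markers, 3 were lower and 2 higher (5 and 1 without wild-type arrays 1 and 2, and 30% and 20% with them, beside 19.2% and 24.3% of all genes), and over the alternatives 0 to 3 higher and 0 to 5 lower, with medians from −1.67 to 0.02. Clic6, Kcne2 and Sostdc1 of the choroid plexus were lower, with differences of −2.13 ± 0.45, −2.51 ± 0.88 and −1.40 ± 0.49, and Ccdc153, of ciliated ependyma, was higher by 1.25 ± 0.27. The median level of that list was −2.35, −2.26, −0.61 and −0.32 on the wild-type arrays and −1.99, −2.17, −2.21 and −2.37 on the knockout arrays, and wild-type arrays 1 and 2 were at the level of knockout. The part of these markers in the differences above was not tested. Oxt (1.35) lost the call without wild-type arrays 1 and 2, where Kcne2 (−4.42) and Ccdc153 (0.78) kept it at a value moved by over 1.5 times. Kcne2 (−2.10 to −1.82 without wild-type array 3 or 4 or knockout array 4) and Sostdc1 (−1.18 to −1.12 without wild-type array 3 or 4 or knockout array 1) lost the call with 1 array left out. Oxt, Sostdc1 and Ccdc153 lost the call after the correction for base composition, Oxt with only the G+C count corrected, Kcne2 and Sostdc1 with normexp background and with slide as a random block, and Kcne2 on the 8 saline arrays only.

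Of 15 astrocyte markers, 5 were lower and 1 higher (2 and 1 without wild-type arrays 1 and 2, and 33.3% and 6.67% with them, beside 19.2% and 24.3% of all genes), while 7 had probes that disagreed. Over the alternatives there were 0 to 1 higher and 2 to 7 lower, with medians from −0.60 to 0.28, against a median of 0.13. Gfap, the intermediate filament of astrocytes, was at 3.27, 2.78, 2.01 and 2.09 on the wild-type arrays and 0.24, 0.33, 0.52 and 0.48 on the knockout arrays. The difference was −2.14 ± 0.29 (adjusted p = 3.33e-05), with −0.83 at its weakest of 3 probes. The growth factor receptor Fgfr3 was lower, with a difference of −1.23 ± 0.32 (adjusted p = 0.00536) and the gap junction protein Gjb6 with −0.40 ± 0.16 (adjusted p = 0.0458), whereas the calcium-binding S100b was higher by 1.65 ± 0.35 (adjusted p = 0.00116). In microglia, the cells in which P2X7 is best known, 4 of 18 markers were higher and 2 lower (3 and 2 without wild-type arrays 1 and 2, and 22.2% and 11.1% with them, beside 24.3% and 19.2% of all genes), and the alternatives gave 2 to 5 higher and 1 to 3 lower, with medians from −0.11 to 0.58. Aif1 (Iba1), a calcium-binding protein of microglia, was at −0.71, −0.35, 0.06 and 0.17 on the wild-type arrays and 2.60, 2.26, 1.92 and 2.24 on the knockout arrays. It was higher by 2.46 ± 0.22 (adjusted p = 6.77e-07), but by 0.93 at its other probe. Tyrobp and Fcrls, also among the 4 higher members, were higher by 0.80 ± 0.28 and 0.64 ± 0.19. The 2 lower members are not described here. The microglial markers Tmem119 and C1qa had 0.60 ± 0.27 and −0.38 ± 0.26 (adjusted p = 0.0726 and 0.238). Fgfr3 (−0.98), Gjb6 (−0.34) and Tyrobp (0.89) lost the call without wild-type arrays 1 and 2, where S100b (1.08) kept it at a value moved by over 1.5 times. Gjb6 (−0.44 to −0.33 without wild-type array 1, 2, 3 or 4 or knockout array 2, 3 or 4) and Tyrobp (0.76 to 0.77 without wild-type array 3 or 4) lost the call with 1 array left out. Tyrobp (0.40 without knockout array 1) kept the call at a value moved by over 1.5 times. Tyrobp lost the call after the correction for base composition, Gjb6, S100b, Fcrls and Tyrobp with only the G+C count corrected, Fcrls and Tyrobp with normexp background, Gjb6 with scaling by the array median, with no filter and with a replicate block, and Gjb6 and Tyrobp on the 8 saline arrays only and with slide as a random block.

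Interferon-stimulated and cytokine genes were called lower in knockout with wild-type arrays 1 and 2 in the fit, and none was without them. Of 26 interferon-stimulated genes, 10 were lower and 1 higher (38.5% and 3.85%, beside 19.2% and 24.3% of all genes), and 5 of 9 cytokine genes were lower and none higher (55.6% and 0%, beside 19.2% and 24.3% of all genes). The alternatives gave 0 to 4 higher and 0 to 17 lower, with medians from −1.78 to 0.29 for the interferon list and 0 to 2 higher and 0 to 5 lower, with medians from −1.60 to 0.05 for the cytokine list. The chemokine Cxcl10 was at 2.56, 3.11, −4.78 and −5.09 on the wild-type arrays and −6.63, −4.99, −5.34 and −5.56 on the knockout arrays. Wild-type arrays 1 and 2 stood high and arrays 3 and 4 near knockout, of which 1 array was well above background; the difference was −4.58 ± 1.49 (adjusted p = 0.0183). Ccl2, which attracts monocytes, was at 2.79, 2.89, −4.25 and −4.32 on the wild-type arrays and −5.19, −4.44, −4.54 and −4.61 on the knockout arrays, in the same pattern. The GTPases Iigp1, Gbp2 and Gbp3 had −2.86 ± 0.91, −2.85 ± 1.02 and −2.19 ± 0.61, and the chemokines Ccl4 and Cxcl16 −1.68 ± 0.54 and −0.94 ± 0.36. The median level of the interferon list was 0.57, 0.19, −2.38 and −2.38 on the wild-type arrays and −2.05, −2.38, −2.19 and −2.28 on the knockout arrays. With wild-type arrays 1 and 2 left out, 0 interferon genes were lower and 4 higher, and 0 cytokine genes were lower and 1 higher. Cxcl10 (−0.69), Iigp1 (−0.46), Gbp2 (−0.08), Gbp3 (−0.68), Cxcl16 (−0.24), Ccl2 (−0.41) and Ccl4 (−1.06) lost the call without wild-type arrays 1 and 2. Cxcl10 (−3.37 to −3.19 without wild-type array 1 or 2), Iigp1 (−2.17 to −1.96 without wild-type array 1 or 2), Gbp2 (−2.85 to −1.91 without wild-type array 1 or 2 or knockout array 1, 2 or 4), Cxcl16 (−0.98 to −0.64 without wild-type array 1 or 2 or knockout array 2, 3 or 4), Ccl2 (−4.02 to −2.77 without wild-type array 1 or 2 or knockout array 1, 3 or 4) and Ccl4 (−1.5 to −1.19 without wild-type array 1 or 2 or knockout array 4) lost the call with 1 array left out. Gbp2, Cxcl16 and Ccl4 lost the call after the correction for base composition, Cxcl10, Gbp2, Cxcl16 (sign turned), Ccl2 and Ccl4 (sign turned) with normexp background, Cxcl10, Iigp1, Gbp2, Cxcl16 and Ccl2 on the 8 saline arrays only, and Cxcl16 with slide as a random block.

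Genes of the cytosolic ribosome and of oxidative phosphorylation were far more often higher than lower in knockout. Of 79 ribosomal protein genes, 55 had a higher and 1 a lower level in knockout (53 and 0 without wild-type arrays 1 and 2, and 69.6% and 1.27% with them, beside 24.3% and 19.2% of all genes), with a median of 1.27, against 0.07 for all genes. Of the 42 with several probes, 21 had every probe called higher and 0 every probe called lower, while 16 had probes that disagreed. Rpl6 was at 2.93, 1.40, 3.55 and 2.90 on the wild-type arrays and 6.76, 5.94, 5.80 and 5.59 on the knockout arrays and higher by 3.32 ± 0.50 (adjusted p = 8.61e-05). Rps19 and Rpl19 were higher by 2.08 ± 0.25 and 1.96 ± 0.16. Ribosomal protein genes have many near-identical processed pseudogenes, which a probe cannot tell from the gene. Of 82 subunits of the mitochondrial respiratory chain and ATP synthase, 55 were higher and 3 lower (40 and 0 without wild-type arrays 1 and 2, and 67.1% and 3.66% with them, beside 24.3% and 19.2% of all genes), with a median of 0.98. Over the alternatives the ribosomal list had 44 to 58 higher and 0 to 2 lower, with medians from 0.68 to 1.34, and the respiratory list 38 to 57 higher and 0 to 6 lower, with medians from 0.62 to 1.06. The complex I subunits Ndufb2 and Ndufc1 were higher by 2.02 ± 0.41 (adjusted p = 0.000956) and 1.40 ± 0.25 (adjusted p = 0.000351), and Cox7a2 of complex IV by 1.14 ± 0.28 (adjusted p = 0.00322), while Sdha, the catalytic subunit of complex II, was lower, with a difference of −1.74 ± 0.45 (adjusted p = 0.0051). The probes of these lists had a median of 14 and 15 T, against 18 for all genes. After the correction for base composition, 46 ribosomal and 49 respiratory genes were higher, with medians of 0.91 and 0.77. Quantile normalization gave medians of 0.68 and 0.62. Knockout array 1 was the highest, with a median level of 6.53 for ribosomal genes against 5.84 to 6.03 on the other knockout arrays, and without it 56 ribosomal genes were higher. Sdha (−1.41) lost the call without wild-type arrays 1 and 2.

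**Figure D4:**
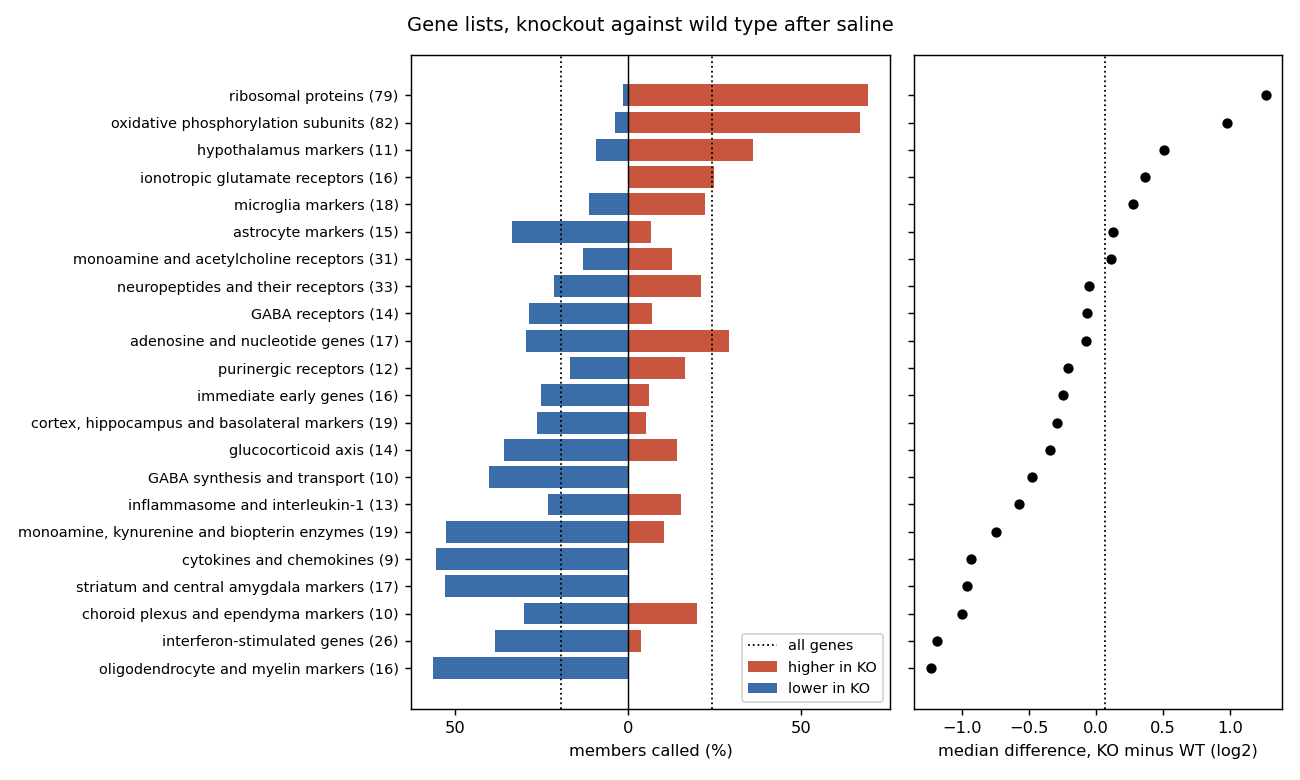
Left, share of measured members called higher (right of 0) or lower (left of 0) in knockout (x axis, percent) for each gene list, with the number measured in brackets; dotted lines are the shares of all genes, 24.3% and 19.2%. Right, median difference of each list (log2), with the dotted line at the median of all genes, 0.07. Ribosomal and respiratory genes lie at the high end and myelin genes at the low end.

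**Figure D5:**
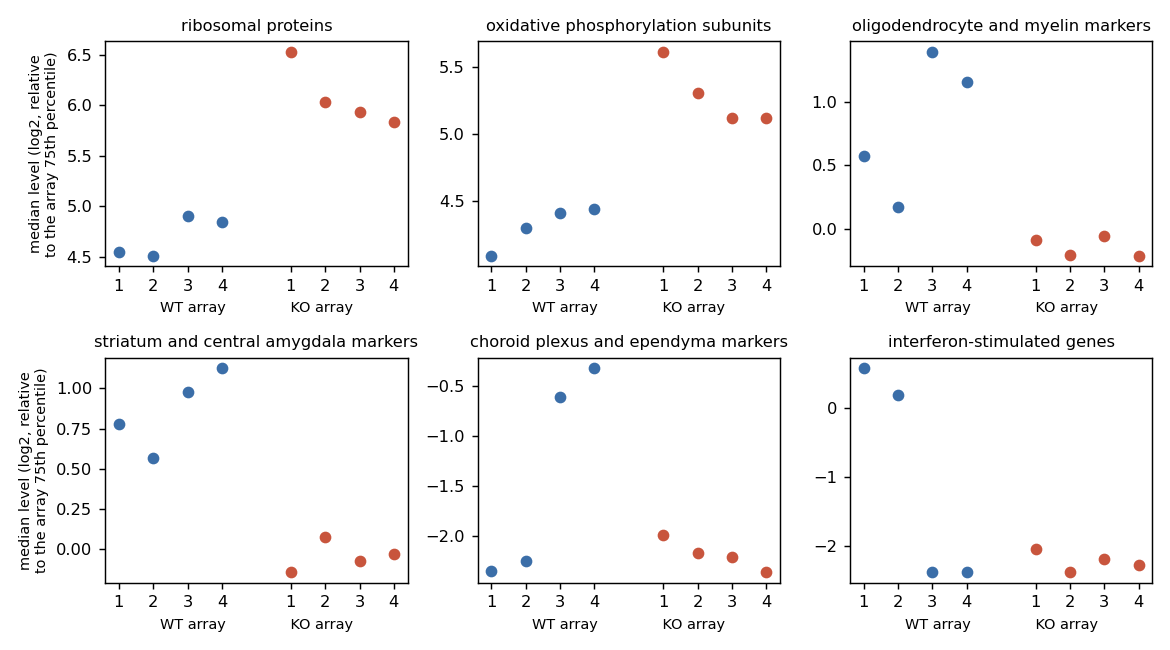
Median level of 6 gene lists (y axis, log2 level scaled by the 75th percentile) on each wild-type and knockout saline array (x axis). Points are arrays. Wild-type arrays 1 and 2 stand high for interferon genes and low for choroid plexus genes, while for ribosomal, respiratory, myelin and striatal genes all 4 knockout arrays lie on 1 side of wild type.

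Genes that flank P2rx7 on chromosome 5 are inherited together with it. Within 1 Mb of P2rx7, 44 genes were measured, P2rx7 included. Of these, 10 were higher, 9 lower and 10 had probes that disagreed, beside 43.5% called among all genes. The counts higher and lower were near the shares of all genes, 24.3% and 19.2%, so by count the region did not stand out. The largest difference among those called, −3.10 ± 0.21, was at 1 probe of a transcript without a gene symbol, 408 kb from P2rx7. Camkk2, a kinase of the calcium and calmodulin pathway 56 kb from P2rx7, was at 2.54, 1.88, 2.97 and 2.81 on the wild-type arrays and 4.49, 3.99, 3.89 and 4.03 on the knockout arrays. It was higher by 1.55 ± 0.23 (adjusted p = 7.04e-05) at this probe and by 0.23 at the other. The histone demethylase Kdm2b was lower, with a difference of −1.56 ± 0.28, with −0.31 at its weakest of 3 probes, and the ubiquitin ligase Rnf34 with −0.87 ± 0.15. The glycosyltransferase B3gnt4, 834 kb away, was higher by 1.01 ± 0.22, the trafficking protein Pheta1 by 1.49 ± 0.31, the phosphatase Pptc7 by 0.66 ± 0.23, the actin nucleation subunit Arpc3 by 0.52 ± 0.15 and the ciliary protein Tctn1 by 0.63 ± 0.24. The signalling adaptor Sh2b3, the transcription factor Mlxip and the phosphatase subunit Ppp1cc were lower, with differences of −0.72 ± 0.16, −0.81 ± 0.21 and −0.49 ± 0.19. Arpc3 (0.36), Mlxip (−0.44), Pptc7 (0.41) and Tctn1 (0.33) lost the call without wild-type arrays 1 and 2. Ppp1cc (−0.53 to −0.31 without wild-type array 3 or 4 or knockout array 1 or 3), Pptc7 (0.47 to 0.62 without wild-type array 1 or 2 or knockout array 1 or 2) and Tctn1 (0.47 to 0.60 without wild-type array 1 or 2 or knockout array 1 or 4) lost the call with 1 array left out. Kdm2b and Ppp1cc lost the call after the correction for base composition, Ppp1cc and Tctn1 with only the G+C count corrected and with slide as a random block, Arpc3, Pptc7 and Sh2b3 with normexp background, Arpc3 and Pptc7 with quantile normalization, Ppp1cc with no filter and with a replicate block, and Ppp1cc, Pptc7 and Tctn1 on the 8 saline arrays only.

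The same comparison after LPS, on other arrays of the same slides and sessions, gave the same sign for most of the called genes. Tmsb10 was 2.72 higher after LPS, Prpf38b 4.01 and Rpl6 3.82, while Elmod1 had −2.29, Mal −1.92 and P2rx7 −1.65. Cxcl10, with 1.99 after LPS, and Fcgr2b, with 0.15, were among those with the opposite sign. Their differences after saline, −4.58 and −1.81, depend on wild-type saline arrays 1 and 2. Cxcl10 was at 2.56 and 3.11 on these, against −4.78 and −5.09 on the other wild-type saline arrays. Fcgr2b was at 1.02 and 1.37, against −1.60 and −1.73. Of the 8354 genes called after saline, 97.2% had the same sign after LPS. In the test of the difference itself, 0 of 19213 genes (0%) passed an adjusted p of 0.05 (limma interaction, smallest adjusted p = 0.0592), and 1262 had an unadjusted p under 0.05. The alternatives gave 0 to 14 such calls. Wild-type saline arrays 1 and 2, with genes of the LPS response at the level of LPS arrays, are part of this test. The share of true changes that it would recover with 4 arrays per group is not given here. The lack of calls therefore does not show that the genotype difference was the same after saline and LPS.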

How the data were processed

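RNA of mouse amygdala was measured on 16 Agilent 1-colour arrays of 60-base probes, 8 of them from saline groups. The deposited values are intensities, background-subtracted and detrended within each array by the scanner software, which the file headers and the submitters' processing notes name as Agilent Feature Extraction 9.5, with no scaling between arrays. The authors also deposited a table of linear fold changes between group means and a table of log2 values averaged over 4 arrays, whose centring the header does not give; these only stand beside the values here, and 32 columns of per-array calls were not used. Probe coordinates and sequences are those of the array files, in mm9.

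From the intensities, log2(processed signal) was centred on the 75th percentile of each array, without control spots and spots flagged as outliers. Probes were kept when well above background on at least 3 arrays of 1 saline group. One limma fit (limma 3.58.1, R 4.3.3; Python 3.11.15 for summaries) to all 16 arrays gave each difference, with Benjamini-Hochberg adjustment over the brightest probes of 19213 genes. Of the probes, 24836 were named through their accession and 16338 keep the name in the file. "At least" folds set dim arrays to the lowest signal well above background on that array. On simulated data of 27992 probes, 100 probes were changed by 1 log2 unit and 100 by 2 in knockout saline. Of these changes, 33% and 86% were recovered. Noise was independent between probes, and the rule that all probes of a gene agree was not simulated. In the data 43.5% of genes were called, far more than were changed in the simulation, so these shares do not give the recovery in this comparison. The number of arrays limits the precision.

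The genes and lists, the rule for naming them and the tests were chosen with earlier results of these data known. Named genes were P2rx7, the 12 highest and 12 lowest with every probe called, the 6 with the widest opposite probes, up to 4 members per list, and called genes within 1 Mb of P2rx7; uncalled members are named where the description turns on them, and some genes are not reported here. Replicate numbers in the labels do not pair arrays: deviations of same-numbered arrays correlated at −0.15 to 0.05. Alternatives covered normalization, background, base composition, filters, blocks and left-out arrays. Base composition and the omission of wild-type arrays 1 and 2 were chosen after seeing the data.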

Additional observations from a re-analysis of the deposited data

Results flagged for a closer look

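In 25 of 230 groups of 4 arrays (10.9%, where chance gives about 1 in 20), taken from the 115 genes named, 1 array lay far from the other 3; 20 of these groups were knockout, and in 15 the array was knockout array 1. The values below are levels of that array.

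Knockout array 1 stood below the other knockout arrays in Dr1 (−2.75), Vbp1 (−0.15), Herc2 (−2.36), Gabra5 (−1.39) and Ppp1cc (2.77), and apart from them, in one direction or the other, in Dlgap2 (4.93), Grik1 (2.02), Grik5 (5.34), Chrm4 (−0.38), Clic6 (0.27), Rpl19 (6.81) and B3gnt4 (−1.57). The glucocorticoid receptor Nr3c1 (0.29) and the immediate early genes Egr3 (−0.24) and Fos (−3.06) were apart on the same array. Knockout array 2 stood apart in Grin2d (−1.46), Adcy5 (−0.94), Avp (0.25) and Agrp (−4.82), and knockout array 4 in Il1r1 (−6.12). On the wild-type side, array 1 stood apart in Elmod1 (1.56), Gabrd (1.72), Foxp1 (2.46) and Ndufb2 (1.86), and array 2 in Rnf34 (3.43). The part of these arrays in the differences of the genes was not tested beyond the values without them.

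The spike-in control RNAs, which no comparison of genes uses, gave a log2 ratio of E1A_r60_n9 to E1A_r60_n11 that was 2.35 higher on the knockout than on the wild-type saline arrays. The ratio was chosen after its values were seen.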

How the results depend on the processing

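Of the 115 genes named, 57 kept direction and call under every alternative run, and 12 reversed in at least 1. Median differences over all genes moved from 0.07 to 0.41 with normexp background and to 0.32 with no filter, which made 80.1% and 69.0% of calls higher in knockout, against 55.9%. Higher genes then numbered 8094 and 7504, and normexp left 2017 lower. Calls in all numbered 8463 with quantile normalization, 10111 with normexp, 7499 with base composition corrected, 10873 with no filter, 6843 on the 8 saline arrays only, 7261 with slide as a random block and 7857 with a replicate block. The replicate block ended the calls of Gad1, Gjb6 and Ppp1cc; the numbers are not pairs. Requiring every probe called left 958 genes (390 higher, 568 lower), which fell to 495 without wild-type arrays 1 and 2. With 1 array left out, calls ranged from 7216 to 8072, higher genes from 4074 to 4670, lower genes from 3099 to 3677, same-sign genes from 3009 to 3133, every-probe genes from 750 to 921, interaction calls from 0 to 3 and P2rx7 from −1.70 to −1.35. Interaction calls were 2 with base composition corrected, 3 with probes well above background on all 8 arrays, 1 with no filter, 5 with the filter on any of 4 groups, 14 with slide as a block and 1 without wild-type arrays 1 and 2.

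Signs turned with normexp for P2rx5 (1.3), Adora2b (0.29), Gch1 (0.53), Slc18a2 (1.11), Cxcl16 (0.38), Ccl4 (0.41) and Mycbp (0.67). With base composition corrected they turned for Txnip (0.18), Lhx6 (0.036), Chrm1 (−0.15), Neurod1 (0.54) and Mycbp (4.50). Mycbp was also 4.53 without wild-type arrays 1 and 2 and −1.87 to 5.35 with 1 array left out, and Nrxn3 was −1.13 with probes well above background on all 8 arrays; for Mycbp under these left-out arrays and Nrxn3, another probe was then the brightest kept. The brightest probe of each gene was chosen anew under every alternative. The cause of the other changes was not tested.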

Other observations

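Of 14 glucocorticoid axis genes measured, which act in the response to stress hormones, 2 were higher and 5 lower in knockout (3 and 3 without wild-type arrays 1 and 2, and 14.3% and 35.7% with them, beside 24.3% and 19.2% of all genes), and over the alternatives 1 to 3 higher and 3 to 7 lower, with medians from −0.71 to −0.09. Hsd11b1, which regenerates active glucocorticoid, was at 0.82, 1.11, 1.26 and 1.39 on the wild-type arrays and −0.14, −0.49, −0.19 and −0.51 on the knockout arrays. It was lower, with a difference of −1.48 ± 0.22 (adjusted p = 7.77e-05). The receptor genes differed in direction: Nr3c2, the mineralocorticoid receptor, was higher by 0.84 ± 0.28 (adjusted p = 0.0208), and Nr3c1, the glucocorticoid receptor, was lower, with a difference of −0.73 ± 0.28 (adjusted p = 0.0394), with probes from −2.51 to −0.07. The chaperone Hsp90aa1, which holds these receptors ready to bind hormone, was higher by 1.82 ± 0.22 (adjusted p = 1.29e-05). Nr3c2 (0.24) lost the call without wild-type arrays 1 and 2. Nr3c2 (0.60 to 0.68 without wild-type array 1 or 2) and Nr3c1 (−0.62 to −0.39 without wild-type array 3 or 4 or knockout array 1) lost the call with 1 array left out. Nr3c1 lost the call with only the G+C count corrected and with slide as a random block, and Nr3c2 and Nr3c1 on the 8 saline arrays only.

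Of 16 immediate early genes, which neurons switch on after activity, 1 was higher and 4 were lower (0 and 5 without wild-type arrays 1 and 2, and 6.25% and 25% with them, beside 24.3% and 19.2% of all genes), with a median of −0.25. With base composition corrected the direction turned, with 3 higher, 2 lower and a median of 0.17. Fos, a transcription factor used as a marker of active neurons, was at −0.41, −0.56, −0.76 and −0.74 on the wild-type arrays and −3.06, −1.59, −1.82 and −1.58 on the knockout arrays. The difference was −1.39 ± 0.37 (adjusted p = 0.00562). The phosphatase Dusp1 was lower, with a difference of −1.23 ± 0.22 (adjusted p = 0.000382) and Egr2 with −0.98 ± 0.30 (adjusted p = 0.012), whereas Egr3 was higher by 2.42 ± 0.51 at its brightest probe and 0.69 at the other. Fos (−1.26) lost the call without wild-type arrays 1 and 2. Dusp1 and Egr2 lost the call after the correction for base composition.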
